A study of Mus musculus with 6 samples.

Results

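The 9 genes described here, *Krt1*, *Krt10*, *Ivl*, *Sprr1a*, *Sprr1b*, *Tgm1*, *Evpl*, *Ppl* and *Sbsn*, are epidermal differentiation and cornified envelope genes. They were chosen by name among the 23698 gene rows of the count files, and each of the 9 was found as a row of its own. In the epidermis, keratinocytes leave the basal layer, which makes *Krt5* and *Krt14*, and switch to *Krt1* and *Krt10*, the keratin pair of the suprabasal layers. Later they build the cornified envelope, a protein shell under the plasma membrane, in which transglutaminases crosslink envoplakin, periplakin, involucrin and the small proline-rich (SPRR) proteins. In cultured keratinocytes, raised calcium is a classical trigger of this programme.

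The study asked how the untranslated regions of mRNAs vary in mouse skin, from stem cells of the epidermis to carcinoma cells. The values below come from cultured squamous cell carcinoma cells (SCCc), with 2 libraries of RNA-seq and 1 of ribosome profiling. SCCc are keratinocytes from newborn (P0) mouse back skin that carry *Hras* G12V and a knockout of *Tgfbr2* (fl/fl KO) and were used at passages 10 to 15. All 3 libraries share this genotype, and SCCc is 1 previously made line, grown in medium with low calcium and chelated serum. Per the paper, the line gives rise to invasive carcinomas after transfer into immunocompromised mice. The long-read libraries and the wild-type keratinocytes were not analysed here, so each value is a level within SCCc and none is a change against normal cells. Footprints are the pieces of mRNA covered by ribosomes, read by ribosome profiling, while RNA-seq measures the mRNAs themselves. Exon counts totalled 10707930 and 14003713 for replicates 1 and 2 of RNA-seq, and 3549555 for ribosome profiling. Nothing in the labels says whether the RNA-seq replicates came from separate cultures, so the spread between them may be technical. Only 1 ribosome profiling library was analysed here, so footprints have no replicate. The paper lists further ribosome profiling libraries of squamous cell carcinoma cells, which were not analysed here. Levels are in RPKM, the counts divided by the counted length and by the total of exon counts of the library, over exons for RNA and over the CDS for footprints. Intervals in brackets are exact 95% Poisson intervals, and the detection limit of a gene is the RPKM that 3 counts would give. Both describe counting error alone, because reads copied by PCR do not stand for separate molecules.

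The 9 genes had counts in all 3 libraries, and they spanned a wide range. The mean RNA level ran from 0.474 RPKM for *Tgm1* to 215 RPKM for *Sprr1b*, and the footprint level from 1.17 RPKM for *Krt10* to 1829.5 RPKM for *Sprr1b*. RNA was above 1 RPKM in both RNA-seq replicates for 8 of the 9 genes, compared with 45.9% of all 23526 rows with counted exons. *Tgm1* was the gene below this level, and the nearest gene above it was *Krt10* with a mean of 7.15 RPKM. At least 3 footprints lay on the CDS in 9 of the 9 genes, compared with 51.8% of the 20188 rows with a counted CDS. Together the 9 genes held 0.135% of the RNA-seq counts on exons in replicate 1, 0.140% in replicate 2 and 0.185% of the footprints on exons, with a Wilson 95% interval of 0.181% to 0.190% for the footprints. The 10 basal keratinocyte markers held 3.72%, 4.19% and 1.90% of the same counts. In a bulk library, fewer cells that express a gene and less RNA per cell cannot be told apart.

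**Figure D1:**
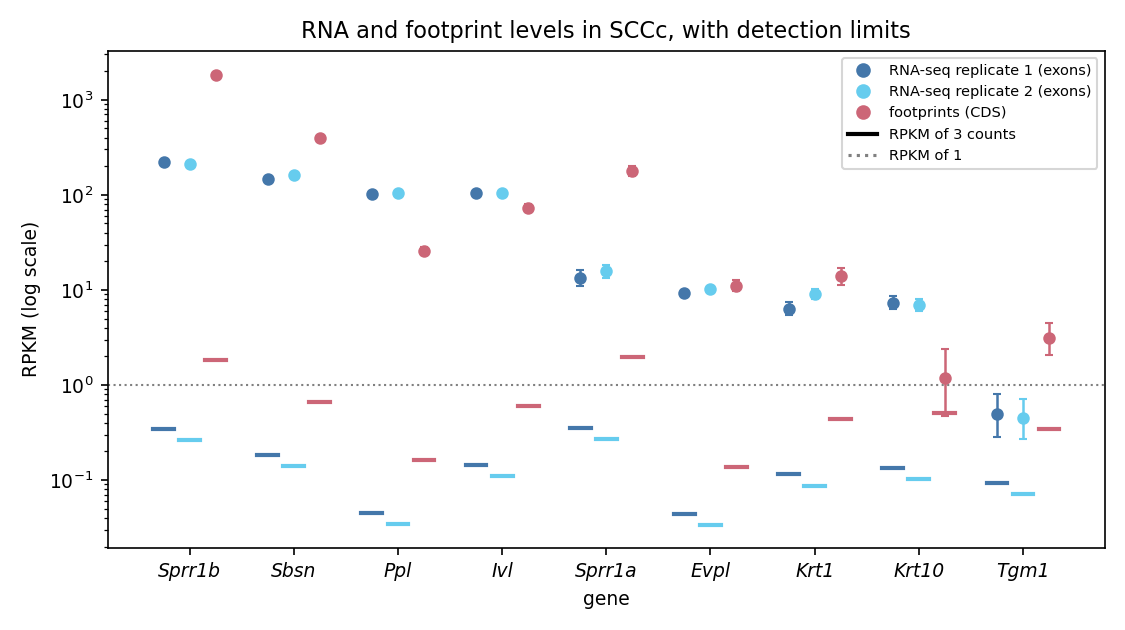
RNA level of each gene in both RNA-seq replicates (RPKM on exons) and footprint level (RPKM on the CDS) on a log axis, with genes ordered by mean RNA level; bars are 95% Poisson intervals, short horizontal lines the RPKM of 3 counts and the dotted line an RPKM of 1. *Krt10* footprints (1.17 RPKM) lie closest to their limit (0.502 RPKM), and *Tgm1* RNA is the only RNA below 1 RPKM.

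By mean RNA level over the 2 replicates, *Sprr1b* (215 ± 6.6 RPKM, SD, n = 2) came first and *Sbsn* (155 ± 12 RPKM) second. *Ppl* (104 ± 2.0 RPKM) and *Ivl* (104 ± 0.12 RPKM) followed and did not differ beyond their spread. *Sprr1a*, *Evpl*, *Krt1* and *Krt10* lay between 14.6 and 7.15 RPKM, and in this order *Krt1* and *Krt10* did not differ beyond their spread, since their replicate values overlapped. Those of *Evpl* (9.18 and 10.2 RPKM) lay just above those of *Krt1* (6.36 and 9.05 RPKM). The order by footprints was different, with *Sprr1a* moving from rank 5 to rank 3 and *Ppl* from rank 3 to rank 5. The footprint intervals of *Krt1* and *Evpl* overlapped, as did those of *Tgm1* and *Krt10*.

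*Krt1* and *Krt10* encode the type II and type I keratins that pair in the suprabasal layers. *Krt1* (GRCm38, chr15:101845426-101850794, minus strand) had 167 counts in RNA-seq replicate 1 and 310.1 in the other, which gave 6.36 RPKM (5.43 to 7.40) and 9.05 RPKM (8.07 to 10.1). These intervals did not overlap, and the level was 55.5 times the detection limit in replicate 1 and 103 times in replicate 2. On its CDS *Krt1* had 95 footprints (76.9 to 116), or 14.0 RPKM against a limit of 0.442 RPKM. *Krt10* (chr11:99385254-99389364, minus strand) had 165 and 203 RNA-seq counts, or 7.37 RPKM (6.29 to 8.58) and 6.93 RPKM (6.01 to 7.96). Over exons the RNA of the pair was therefore at a similar level, with a ratio of *Krt1* to *Krt10* of 0.863 in replicate 1 and 1.31 in replicate 2. Within the genes it was not. On the CDS *Krt1* had 157 and 301 RNA-seq counts and *Krt10* 83.9 and 136. On the 3′UTR *Krt1* had 9 and 8.48 and *Krt10* 79.9 and 66.2. Footprint levels on the CDS differed, because *Krt10* had only 7 there (2.81 to 14.4), or 1.17 RPKM against a limit of 0.502 RPKM. The footprint level of *Krt1* was 12.0 times that of *Krt10*, with a 95% interval from counting of 5.55 to 25.8. The basal keratins were far above both. The RNA of *Krt5* was 1252 times that of *Krt1* in replicate 1 and 1048 times in replicate 2, and its footprint level 331 times (271 to 405). *Krt14* RNA was 655 times that of *Krt10* in replicate 1 and 773 times in replicate 2, and its footprint level 2584 times (1232 to 5422), with 7 footprints on the CDS of *Krt10*.

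Involucrin, envoplakin and periplakin form the scaffold on which the envelope is assembled. *Ivl* (chr3:92570902-92573735, minus strand), which encodes involucrin, had 2145 and 2800.2 RNA-seq counts, or 104 RPKM in each replicate, about 715 and 933 times the limits of 0.146 and 0.111 RPKM. It had 364 footprints on the CDS (328 to 404), or 73.1 RPKM against a limit of 0.602 RPKM. *Ppl* (chr16:5086291-5132421, minus strand), which encodes periplakin, had the most RNA-seq counts of the 9 genes, 6897 in replicate 1 and 9271 in replicate 2, over 6277 counted bases. This gave 103 RPKM (100.2 to 105) and 105 RPKM (103 to 108). Its CDS held 481 footprints (439 to 526), or 25.7 RPKM against a limit of 0.161 RPKM. *Evpl* (chr11:116220559-116238077, minus strand) encodes envoplakin, a plakin that binds periplakin. Its 629 and 911 RNA-seq counts gave 9.18 RPKM (8.48 to 9.93) and 10.2 RPKM (9.52 to 10.9), and its 240 footprints (211 to 272) gave 11.1 RPKM against a limit of 0.138 RPKM. Between these partner proteins, RNA of *Ppl* was 11.2 times that of *Evpl* in replicate 1 and 10.4 times in replicate 2. On the level of footprints the ratio was 2.33 (1.99 to 2.72), which lies below both RNA ratios.

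The SPRR proteins are short, proline-rich substrates of transglutaminases that bridge other envelope proteins. *Sprr1a* (chr3:92483952-92485895) and *Sprr1b* (chr3:92436809-92438789) are neighbours on the minus strand, 45.2 kb apart, and the stretch from *Sprr1b* to *Ivl* spans 137 kb and holds 6 protein-coding genes of GENCODE M21. Because related genes can share reads, their coding sequences were compared. The CDS of *Sprr1a* (432 bases) and *Sprr1b* (459 bases) were identical at 363 of 459 aligned positions (79.1%). The longest run they shared was 20 bases, and 0 of the 430 stretches of 30 bases in *Sprr1b*, about the length of a footprint, occurred in *Sprr1a* or in a transcript of any other gene. The first 30 bases of each CDS, which hold the start of this shared run and 2 positions that differ, are shown with the differing bases in capitals (chr3:92484663-92484692 in *Sprr1a*, chr3:92437538-92437567 in *Sprr1b*, minus strand, GRCm38).
Sprr1a: atgagttcCcaCcagcagaagcagccctgc
Sprr1b: atgagttcAcaTcagcagaagcagccctgc
The 2 genes differed strongly in level. *Sprr1b* had 1926 and 2411 RNA-seq counts, or 219 RPKM (210 to 229) and 210.0 RPKM (202 to 219), and 2981 footprints on the CDS (2875 to 3090), or 1829.5 RPKM. *Sprr1a* had 114 and 174 RNA-seq counts, or 13.5 RPKM (11.1 to 16.2) and 15.7 RPKM (13.5 to 18.2), and 272 footprints (241 to 306), or 177 RPKM. Because both genes are short, their detection limits were the highest of the 9, at 1.96 RPKM for *Sprr1a* and 1.84 RPKM for *Sprr1b* in footprints. RNA of *Sprr1b* was 16.3 times that of *Sprr1a* in replicate 1 and 13.3 times in replicate 2, and its footprint level 10.3 times (9.11 to 11.7). Within the CDS of *Sprr1b*, 29.3% of the stretches of 30 bases occurred more than once in the same CDS, compared with 9.43% in *Sprr1a*, so that some footprints have no single position although their gene is clear.

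*Tgm1* (chr14:55700009-55713926, minus strand) encodes transglutaminase 1, the membrane-bound enzyme that crosslinks involucrin and attaches lipids to the envelope. It had 16 and 19 RNA-seq counts. These gave 0.497 RPKM (0.284 to 0.807) and 0.450 RPKM (0.271 to 0.704), which is 5.33 and 6.32 times the limits of 0.0932 and 0.0713 RPKM. Its RNA was thus measurable at this depth but low, near the middle of all rows (percentile 49.9). The CDS held 27 footprints (17.8 to 39.3), or 3.11 RPKM, 9 times the limit. RNA of *Tgm2*, the tissue transglutaminase, was 67.4 times that of *Tgm1* in replicate 1 and 90.1 times in replicate 2, and its footprint level 18.5 times (12.5 to 27.3). Of the other epidermal transglutaminases, *Tgm3* had 1 and 2.14 RNA-seq counts and *Tgm5* 0 and 5, and neither had a footprint on its CDS.

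*Sbsn* (chr7:30751471-30756134, plus strand) encodes suprabasin, a secreted protein of differentiating keratinocytes. It had 2384 and 3470.1 RNA-seq counts, or 146 RPKM (140 to 152) and 163 RPKM (157 to 168), and 1802 footprints on the CDS (1719 to 1887), or 396 RPKM. Both levels were second to those of *Sprr1b*. For *Sbsn* the counted CDS was 1282 bases, while the longest annotated CDS has 2046. In the other 8 genes the counted and annotated CDS lengths were equal. Of the stretches of 30 bases in the longest CDS of *Sbsn*, 37.4% occurred more than once within it and 5.40% also lay in *Tmem147os*, a gene on the same strand that has no row in the files, so its level is less certain than that of *Ppl* or *Evpl*. In those genes, and in *Tgm1*, 0 such stretches were repeated or shared. In *Krt1* 2 of 1882 stretches and in *Krt10* 7 of 1654 were shared with other keratin genes, *Krt5* and *Krt14* among them, and in *Ivl* 33 of 1375 with other genes. *Krt5* had 28660 footprints on its CDS and *Krt14* 15608, compared with 95 for *Krt1* and 7 for *Krt10*. How many counts of *Krt1* and *Krt10* came from shared stretches was not tested, so their levels are also less certain. *Krt10* and *Tgm1* each overlap an unlisted gene on the opposite strand, and whether the counting used strand is not given in the sources used here.

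The position of the counts along the mRNA differed between genes. Over all genes, 90.1% of the footprints on exons lay on the CDS, 4.50% on the 5′UTR and 1.84% on the 3′UTR, while RNA-seq counts lay to 67.3% and 68.7% on the CDS. In 8 of the 9 genes between 90.7% and 100% of the footprints were on the CDS. *Krt10* was the exception. Of its 39 footprints, 32 were on the 3′UTR, a share of 82.1% (Wilson 95% interval 67.3% to 91.0%), and 7 on the CDS. The RNA-seq counts of *Krt10* also lay to 48.4% and 32.6% on the 3′UTR, which makes up 377 of its 2092 counted bases. In *Krt1* 0 of 95 footprints lay on the 3′UTR, with an upper Wilson bound of 3.89%. The RNA-seq counts of *Krt1* lay to only 5.40% and 2.73% on the 3′UTR, which makes up 477 of its 2447 counted bases. Over all genes 27.2% and 25.2% of the RNA-seq counts on exons lay on the 3′UTR. On the 5′UTR, *Sprr1b* had 146 footprints, or 676 RPKM, and *Sprr1a* 22.9 footprints, or 127 RPKM, while *Krt1* and *Krt10* had 0.

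**Figure D2:**
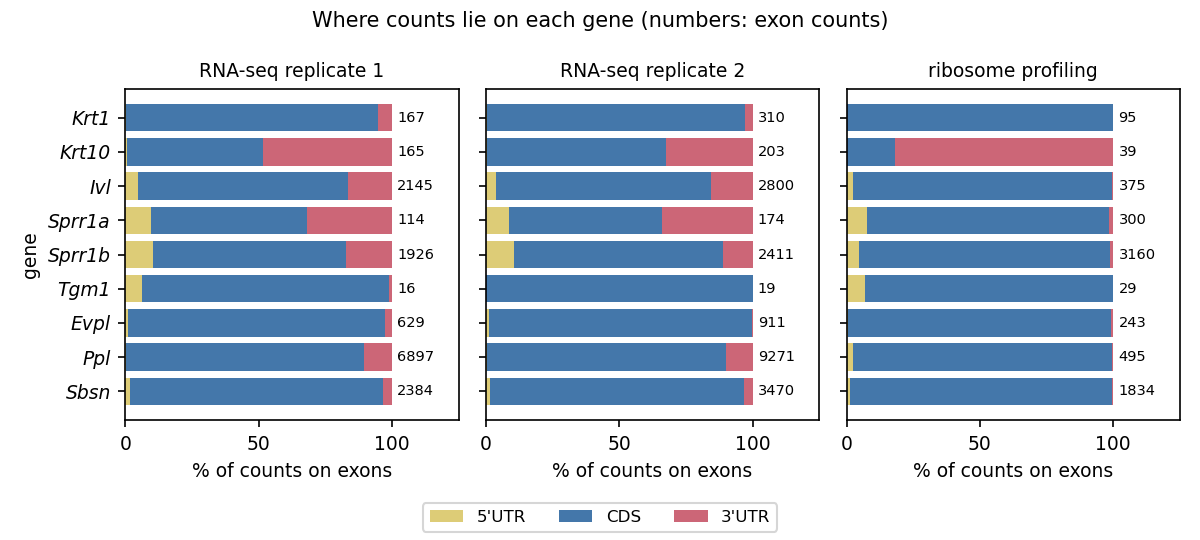
Share of the exon counts of each gene that lay on the 5′UTR, CDS and 3′UTR, in percent, for the RNA-seq replicates and the ribosome profiling library; numbers beside the bars are exon counts. In ribosome profiling the CDS holds between 90.7% and 100% of the counts in 8 genes and 17.9% in *Krt10*.

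Translational efficiency asks how many footprints a gene has for its RNA. It was taken as the ratio of footprint RPKM (CDS) to mean RNA-seq RPKM (exons) on the log2 scale, relative to the median of the genes with RNA above 1 RPKM in both replicates, a base mean above 25 and footprints on a counted CDS. These filters were passed by 8 of the 9 genes, compared with 48.9% of the 20188 rows with a counted CDS, and *Tgm1* did not pass. The 8 genes ran from -2.95 to 3.26, and all 9862 passing genes had an SD of 1.45. Their median was 0.19, where that of all passing genes is 0 by definition. This median was 0.021 without RNA-seq replicate 1. It was 0.99 when counts were not divided by length, where 4 genes lay above 1. Above 1 lay 3 of the 8 genes, *Sprr1a*, *Sprr1b* and *Sbsn*, compared with 20.7% of all passing genes. Below -1 lay 2 of the 8, *Ppl* and *Krt10*, compared with 21.1%.

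The highest log2 translational efficiency was that of *Sprr1a*, 3.26 ± 0.17 (SD over the 2 RNA-seq replicates) with a counting error of 0.12, at percentile 98.2 of the passing genes. That of *Sprr1b* was 2.75 ± 0.034 with a counting error of 0.034, at percentile 97.1. The difference between them, 0.51, was larger than its counting error of 0.13 and rests on 1 footprint library. *Sbsn* had 1.01 ± 0.12, just past the limit of 1. It was 0.93 without RNA-seq replicate 1. It was also 0.99 with no filter beyond counts above 0 and 0.62 when each library had to reach 100 counts, but those filters change only the median that values are taken against, which moves every gene by the same amount and leaves the ratio of *Sbsn* as it was. *Krt1* lay at 0.52 ± 0.37, with 0.80 against replicate 1 alone and 0.28 against replicate 2 alone, so it lay above the median gene in both cases, by amounts that differed. *Evpl* lay at -0.15 ± 0.11, within 2 counting errors (0.10 each) of the median gene, and at 0.11 with RNA-seq counted over the CDS. *Ivl* had -0.85 ± 0.0087 with a counting error of 0.078. *Ppl* had -2.36 ± 0.038 with a counting error of 0.067, at percentile 4.75, and lay 2.21 below its partner *Evpl*, with a counting error of 0.12 for that difference. *Krt10* was lowest, at -2.95 ± 0.052, but its 7 footprints leave a counting error of 0.55, so that *Krt10* and *Ppl* could not be told apart. With a pseudocount of 1 RPKM *Krt10* had -2.22 and *Ppl* -2.29, and *Krt10* had -2.20 with RNA-seq over the CDS and -2.25 when counts were not divided by length. For *Tgm1*, outside the filters, the same ratio was 2.37 with a counting error of 0.37. *Sprr1b* and *Ppl* show the span most directly. The RNA of *Sprr1b* was 2.14 times that of *Ppl* in replicate 1 and 1.99 times in replicate 2, and its footprint level was 71.0 times (64.5 to 78.2).

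**Figure D3:**
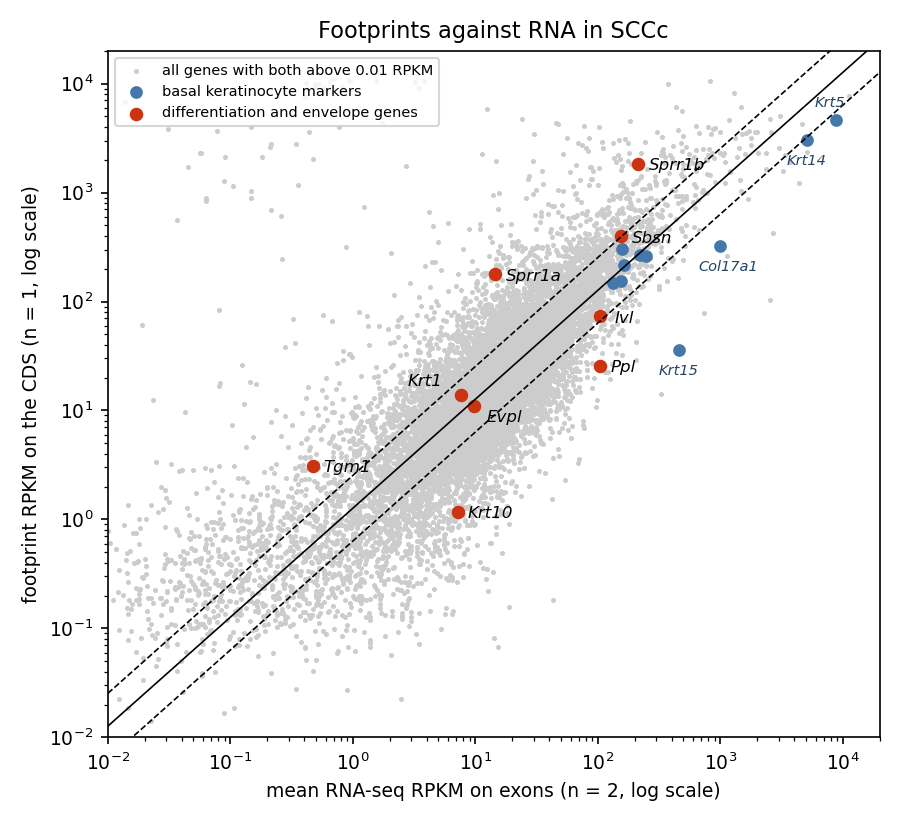
Footprint RPKM on the CDS (1 library) against mean RNA-seq RPKM on exons (2 replicates), both on log axes, for all genes (grey), the 9 differentiation and envelope genes (red) and the basal keratinocyte markers (blue); the solid line is the median translational efficiency and the dashed lines lie 1 log2 unit above and below it. *Sprr1a*, *Sprr1b*, *Tgm1* (which did not pass the filters) and, only just, *Sbsn* lie above the upper dashed line, *Ppl* and *Krt10* below the lower.

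The genes nearest to *Sprr1a* over the log2 RPKM of the 3 libraries were *Dad1*, *Scd1* and *Serpinb2*, at Euclidean distances of 0.15, 0.27 and 0.31 among 9862 genes. Those nearest to *Krt10* were *D5Ertd579e* (0.084), *Spire1* (0.20) and *Zfp532* (0.20). The measure covers levels in 3 libraries of 1 cell line only.

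The other proteins of the cornified envelope were mostly at the detection limit. Of 48 listed genes 2 had no row, *Flg* and *Sprr2a3*, and 1 row joined 2 of the others, which left 45 rows. In 31 of the 45 rows there were fewer than 3 RNA-seq counts in both replicates, in 15 of them 0, and 11 of 45 were above 1 RPKM in both. The joined row, *Sprr2a1* and *Sprr2a2*, is in both of these groups, since its 2.63 and 2.85 counts lay on only 44 bases, and its RNA was below its own detection limit. *Lor*, the main protein of the mature envelope, had 2 RNA-seq counts in each replicate and 0 footprints on the CDS. The 21 late cornified envelope (*Lce*) genes reached at most 3 counts, and 0 of them had 3 footprints. For *Lce3c*, *Lce3d*, *Lce3e* and *Lce3f* this says little, because the counted CDS has only 8 to 41 bases and the detection limit for footprints is 20.6 to 106 RPKM. The genes with the most RNA in this list were *Krtdap*, a secreted protein of differentiating keratinocytes, with 58.1 and 60.6 RPKM and 364 footprints, *Sprr2g* with 35.6 and 30.6 RPKM and no counted CDS, and *Cdsn*, which encodes corneodesmosin, with 16.3 and 20.0 RPKM and 185 footprints. Of the 9 *Sprr2* rows 6 were above 1 RPKM in both replicates, the joined row among them. Those genes are related copies whose shared sequence was not measured here, and their counts are treated as uncertain. *Krt77*, a type II keratin, had 13.5 RPKM in each replicate and 530 footprints, and its footprint level was 6.21 times that of *Krt1* (4.99 to 7.73). Sequence that *Krt77* shares with other keratins was not measured either, and its counted UTRs have only 0 and 3 bases. Translational efficiency could be given for 8 of the 45 rows, with a median of 2.25, of which 5 were above 1 and 2 below -1. Of the 5, 3 are the uncertain *Sprr2d*, *Sprr2h* and *Sprr2k*, and without these the median is 0.50, the value of *Cdsn*, with *Krt77* still included.

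Of the 22 crosslinking and barrier enzymes and inhibitors, 13 were above 1 RPKM in both replicates and 14 had at least 3 footprints. *Klk8*, a kallikrein protease, had 33.8 and 44.6 RPKM of RNA and 516 footprints. *Spink5*, which encodes the protease inhibitor LEKTI, had 38.6 and 35.6 RPKM and 771 footprints, and *Tgm2* had 33.5 and 40.6 RPKM and 421 footprints. The median log2 translational efficiency of the 12 that passed was 0.78, with 5 above 1 and 0 below -1. Of the 15 transcription factors and regulators of differentiation, 14 were above 1 RPKM in both replicates. *Klf4*, a factor needed for barrier formation, had 35.6 RPKM in each, and *Cebpb* 23.5 and 25.3 RPKM. Their log2 translational efficiencies were -1.31 and 2.57, and the 13 genes that passed had a median of -0.11, with 3 above 1 and 3 below -1.

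**Figure D4:**
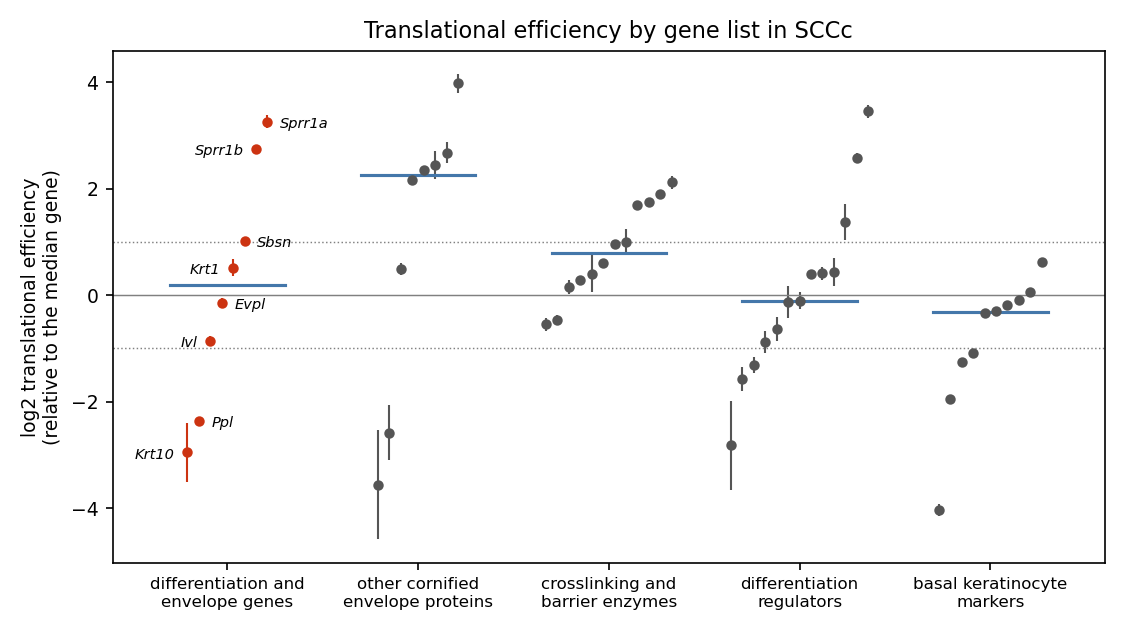
Log2 translational efficiency of the genes that passed the filters in each list, relative to the median of all passing genes; bars are 1 counting error, blue lines the median of a list, and dotted lines mark 1 and -1. The 8 differentiation and envelope genes run from -2.95 (*Krt10*) to 3.26 (*Sprr1a*).

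Basal keratinocyte markers were abundant. All 10 of them were above 1 RPKM in both replicates and had footprints. *Krt5* led with 7965 and 9483 RPKM, followed by *Krt14* with 4824 and 5362 RPKM and *Col17a1*, a hemidesmosome collagen, with 946 and 1024 RPKM. Of these 10 genes 0 had a log2 translational efficiency above 1 and 4 were below -1, with a median of -0.31. *Krt15* was lowest at -4.03 ± 0.17.

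Between RNA-seq replicates, counts varied beyond sampling noise (chi-square divided by degrees of freedom, 7.52 over 9862 genes), which does not show whether they came from separate cultures. Among the 8892 passing genes with at least 100 counts in both, the log2 ratio of replicate 2 to replicate 1 had an SD of 0.18. For *Krt1* it was 0.51 with a counting error of 0.14, at percentile 99.7. The other 8 genes lay between -0.14 (*Tgm1*, counting error 0.49) and 0.23 (*Sprr1a*, counting error 0.17). The higher *Krt1* level in replicate 2 came from the CDS, which held 157 and then 301 counts. Its 3′UTR did not rise, with 9 and then 8.48, although these are few. Whether the difference holds for the whole *Krt1* mRNA was not tested, nor was the part of reads from related keratins such as *Krt5*. *Krt2*, another suprabasal keratin, had 33.6 and 137 RNA-seq counts, all on the CDS, and 2 footprints, a log2 ratio of 1.64.

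Some markers of other cell types were higher in the same replicate as *Krt1*, and so were 7 of the 10 basal keratinocyte markers. The 10 fibroblast markers summed to 16.3 RPKM in replicate 1 and 22.4 RPKM in replicate 2, with 5 of 10 above 1 RPKM in both and none at 0 counts in both. Their most abundant gene was *Fbln1*, with 5.88 and 6.15 RPKM and 85 footprints. *Col3a1* had 3.89 and 5.49 RPKM and *Col1a2* 2.29 and 3.94 RPKM, and both had 0 footprints on the CDS. Of the 7 fibroblast markers with at least 10 counts in each replicate, 6 were higher in replicate 2. The 6 immune cell markers summed to 3.81 and 12.2 RPKM, with *Lyz2* the most abundant at 2.71 and 8.56 RPKM. *Cd74* had 0.950 and 3.24 RPKM and *Itgam* 0.0608 and 0.205 RPKM, while *Cd3e* and *Cd207* were at 0 counts in both replicates, and 0 footprints lay on the CDS of the 6 genes. The 6 melanocyte markers summed to 5.49 and 5.52 RPKM, nearly all from *Pmel* (5.03 and 5.19 RPKM), with *Dct* at 3 and 7.96 counts, *Mlana* at 1 and 0 and none at 0 in both. The 6 endothelial markers summed to 0.688 and 0.697 RPKM, led by *Kdr* (0.345 and 0.321 RPKM), with *Pecam1* at 0.113 and 0.216 RPKM, *Tie1* at 0.119 and 0.0454 RPKM and none at 0 in both. The part of other cells in the *Krt1* difference was not tested.

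**Figure D5:**
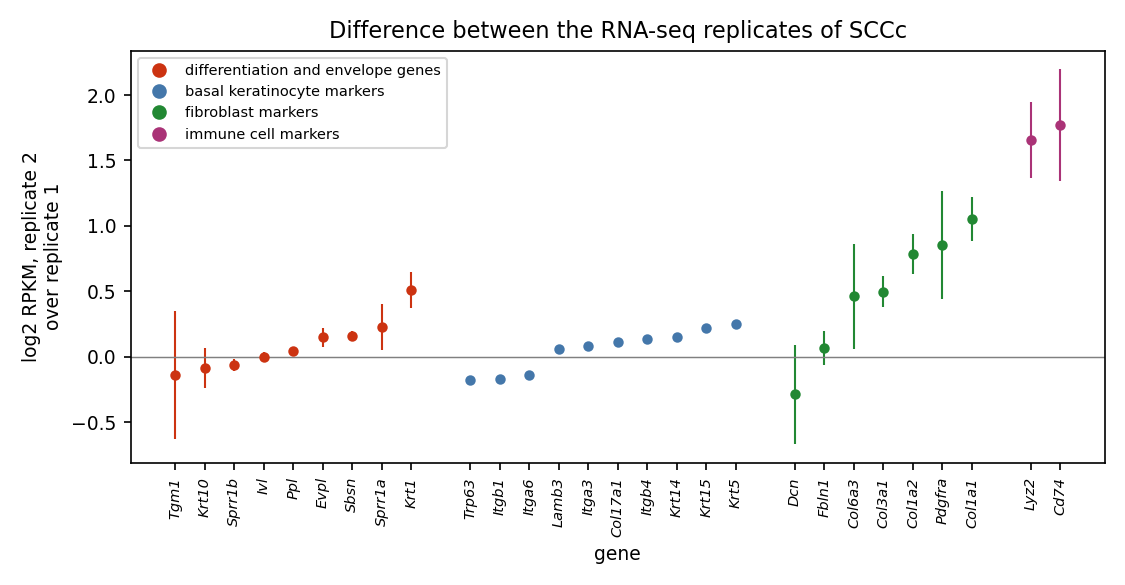
Log2 ratio of RPKM in RNA-seq replicate 2 to replicate 1 for genes with at least 10 counts in each replicate, by list; bars are 1 counting error. *Krt1* (0.51) stands above the other 8 differentiation and envelope genes, which reach at most 0.23.

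The upstream sequences of the genes were compared as well. RefSeq promoter sequences (GRCm38.p6, 250 bases before to 50 after the start site) were at hand for 6 of the 9 genes, in 7 sequences. The motif TGANTCA, the core bound by AP-1 factors, which reads the same on both strands, occurred in 4 of the 6 genes, compared with 7.81% of all 32851 promoters. The motif TATAAA, searched on both strands, occurred in 4 of the 6 (*Krt10*, *Ivl*, *Sprr1a* and *Sprr1b*), compared with 13.6%, and did not overlap the first. The genes with TGANTCA held ranks 1, 2, 4 and 5 of the 9 by RNA level. *Ppl*, *Evpl* and *Krt1*, at ranks 3, 6 and 7, had no sequence at hand and were not searched. A match describes the letters only, and a link between motif and RNA level was not tested. The TGANTCA matches of *Sprr1a*, *Sprr1b*, *Ivl* and *Sbsn* are shown in capitals with 10 bases on either side, read along the strand of the gene. They lie 116 bases before the start site in *Sprr1a* (chr3:92485981-92486007, with another match at 146), 111 in *Sprr1b* (chr3:92438874-92438900), 116 in *Ivl* (chr3:92573835-92573861) and 119 in *Sbsn* (chr7:30751342-30751368).
Sprr1a: gggaggagggTGAGTCAtaggtgactg
Sprr1b: gcacctaggaTGAATCAtgtctgacag
Ivl: agttatcagaTGACTCAgaaaggaagg
Sbsn: atcttgtccaTGAATCAtcctgtcttc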

How the data were processed

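Per the submitters' notes and the paper's methods, the authors used TrimGalore for adapters, Bowtie2 2.4.1 to take rRNA, tRNA and mitochondrial reads out of ribosome profiling, and STAR 2.6.1 for alignment (GRCm38), and counted each gene with Plastid over exons, CDS and UTRs. The counts the authors deposited are estimated counts per gene, not normalized and not always whole, with 1 library per file. The RPKM values the authors deposited divide these counts by length and by a larger library total, of which the exon counts were 1.75% in ribosome profiling and 21.1% and 21.3% in RNA-seq. The annotation release used for counting is not given in the sources used here.

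RPKM was computed again from counts, counted length and summed exon counts with Python 3.11.15, numpy 2.4.6, pandas 2.3.3 and scipy 1.17.1, without a pseudocount. The base mean used DESeq2's size factor formula on CDS footprints and exon RNA-seq counts, rounded to whole numbers. With 1 condition and 1 ribosome profiling library no test between conditions was possible. The alternatives were RNA-seq without replicate 1 or 2, RNA-seq over the CDS, 1 RPKM as pseudocount, no division by length, other filters, edgeR 4.0.16 TMM and DESeq2 1.42.0 size factors. On simulated counts, 200 genes that reach 100 counts in each library were changed 4-fold, and 99% of them were recovered within 0.5 on the log2 scale. Genes with fewer counts, such as *Krt1*, *Krt10* and *Tgm1*, were not among those assessed. Gene positions and transcripts came from GENCODE M21.

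The members and lists were chosen with earlier results of these data known. Named genes were the 9 members, the 3 genes with the most RNA in each other list, and the 3 nearest to the members with the highest and lowest translational efficiency. *Lor*, *Krt2*, *Krt77*, *Krt15*, *Tgm3*, *Tgm5*, *Cd3e*, *Cd207*, *Sprr2a1*, *Sprr2a2*, *Sprr2d*, *Sprr2h*, *Sprr2k*, *Lce3c*, *Lce3d*, *Lce3e* and *Lce3f* were named after their values were seen. *Flg*, *Sprr2a3* and *Tmem147os* are named because they have no row. A gene that this rule names is not reported here.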

Additional observations from a re-analysis of the deposited data

Results flagged for a closer look

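Footprints on UTRs do not enter the footprint levels or the numerator of translational efficiency, which use the CDS. The 3′UTR of *Krt10* held 32 footprints and the CDS 7. Per length, footprints on the 3′UTR were denser than on the CDS by 4.35 on the log2 scale, and RNA-seq counts by 2.09 in replicate 1 and 1.12 in replicate 2. Of the 1164 genes with at least 10 footprints on a 3′UTR of at least 60 bases, whose median was -4.70, 73 were above 0 and 7, *Krt10* included, were at or above the value of *Krt10*. The cause was not tested.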

How the results depend on the processing

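The numbers of genes detected and passing the filters, and of those with a log2 translational efficiency above 1 or below -1, stayed within 1.5 times under every alternative run. Above 1 lay between 2 and 4 genes, with *Sbsn* under the limit without RNA-seq replicate 1 (0.93), and *Krt1* (1.18) and *Sbsn* (1.78) above it when counts were not divided by length. Filters change only which genes have a value and the median they are taken against, so that each moves all genes by the same amount and the ratio of no gene changes. By this shift alone *Sbsn* (0.62) fell under 1 and *Ivl* (-1.24) under -1 with at least 100 counts in every library, a filter that left 6 of the 9 genes and gave no value for *Krt1*, *Krt10* and *Tgm1*, and *Sbsn* (0.99) fell under 1 with no filter beyond counts above 0, where *Tgm1* is above it. The median of the genes passing was 0.19, between 0.021 and 0.36 with 1 RNA-seq replicate left out, 0.99 without division by length, and 0.50 with no filter beyond counts above 0, where *Tgm1* enters and 9 genes count. *Krt10* moved from -2.95 to -2.22 with a pseudocount, -2.20 with RNA-seq over the CDS and -2.25 without division by length. Of 62 values of single genes under the alternatives, 60 had the sign of the value given. The exceptions were those of *Evpl*, 0.11 with RNA-seq over the CDS and 0.80 without division by length, and the cause was not tested.

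No paired analysis was possible because there is only 1 condition, with footprints from 1 library. Depth limits *Krt10* (7 footprints on the CDS) and *Tgm1* (16 and 19 RNA-seq counts) most, and genes with fewer than 3 counts cannot be told from absent.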
